A study of Mus musculus with 4 samples.

Results

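Oligodendrocytes make the myelin of the central nervous system. The 32 genes described here follow their formation from dividing precursor to myelinating cell, and they were taken by symbol from a table of 35147 genes. All 32 were found. They comprise 3 surface genes of precursors, 6 transcription factors of the lineage, 4 genes of committed cells, 9 genes of the myelin membrane, 4 enzymes of myelin lipids and metabolism, and 6 other genes of mature cells.

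The RNA had been precipitated with anti-4E-T or with anti-IgG as the control. It came from wild-type CD1 mice, from the wall of the lateral ventricle known as the ventricular-subventricular zone (V-SVZ), at an age of P7/P8, that is 7 or 8 days after birth. Each antibody had 2 libraries, numbered as experiments 1 and 2 in the titles. The 4E-T libraries held 23006357 and 28749439 gene reads, and the IgG libraries held 14421019 and 24780150. The labels do not say whether the experiments used separate animals or how many animals were pooled, and the p-values reflect only how far these libraries differ, which may be technical. The comparison asks which RNAs came down with 4E-T above the level brought down by IgG.

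The V-SVZ is a stem cell niche beside the lateral ventricles of the forebrain that gives rise to neuroblasts and also to oligodendrocyte precursors. Precursors carry the growth factor receptor Pdgfra and the proteoglycan Cspg4 (NG2), and their identity is held by Olig2 and Sox10. Committed cells pass through a premyelinating stage marked by Gpr17, Bcas1 and Enpp6, after which Myrf drives the genes of the myelin sheath. 4E-T binds the cap-binding protein eIF4E, represses translation and localises to P-bodies, which are cytoplasmic granules of RNA and protein. In RNA from whole tissue, more cells of the lineage, more RNA per cell and a larger share of that RNA held by the antibody cannot be told apart. The labels do not say whether both antibodies of an experiment were used on the same lysate, which would hold the same cells for both. No library of unprecipitated RNA was analysed here.

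RNAs of Olig2, Sox10 and Bcas1 stood higher with 4E-T than with IgG in both experiments. On deposited FPKM so did Pdgfra, Nkx2-2, Nkx6-2, Ermn and Opalin. In fits with a term for the experiment only the first 3 were called higher, or 10% of the 30 tested genes. Of all genes, 17.5%, 13.6% and 10.4% were called higher on deposited FPKM, recounted reads and quantile-normalised FPKM. Of the 8 myelin membrane genes abundant enough to be tested, 0 were above and 8 were below the median change of all genes, whether values were taken as deposited, quantile-normalised or recounted as reads. Within experiment 1 alone and within experiment 2 alone, on deposited FPKM, 8 of 8 were again below the median. Of all genes tested, 36.9% were below it in both experiments. The count of 8 rested in part on IgG replicate 2. Without that library, in a fit with no term for the experiment, the median of all genes was 0.46 on the log2 scale, and 3 of the 8 were above it, with Mag at 0.63, Cnp at 0.62 and Mbp at 0.52. Without 4E-T replicate 1, 2 of the 8, Mag and Cnp, were above. RNAs of the precursor gene Lhfpl3 and the premyelinating gene Enpp6 were also below the median of all genes on these scales. The same position was not particular to this lineage. On deposited FPKM, 10 of 10 vascular and mural, 7 of 8 microglial and 5 of 6 ependymal markers were below that median. So were 5 of 8 astrocyte and stem cell, 4 of 8 neuroblast and 1 of 6 striatal neuron markers.

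Every gene of the list had reads in every library, and the lowest count was 18 reads, for Opalin in IgG replicate 1. Levels are given as the FPKM that the authors deposited, a read density scaled to transcript length and to the authors' own denominator for each library. That denominator hardly followed the gene reads given above. The FPKM worth of 1 read, relative to IgG replicate 1, was 0.90 and 0.92 in 4E-T replicates 1 and 2, and 0.97 in IgG replicate 2. The median over the 32 genes was 10.6 and 12.6 FPKM in 4E-T replicates 1 and 2, and 11.7 and 21.0 FPKM in IgG replicates 1 and 2. Mbp, the basic protein of compact myelin, had the highest mean FPKM of the list in both groups. The second place differed: it was held by Bcas1 in the 4E-T libraries, and by Cd9 in the IgG libraries, where Bcas1 was in place 7. Olig2 ranked 6 in the 4E-T libraries and 9 in the IgG libraries, and Sox10 ranked 9 and 14.

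**Figure D1:**
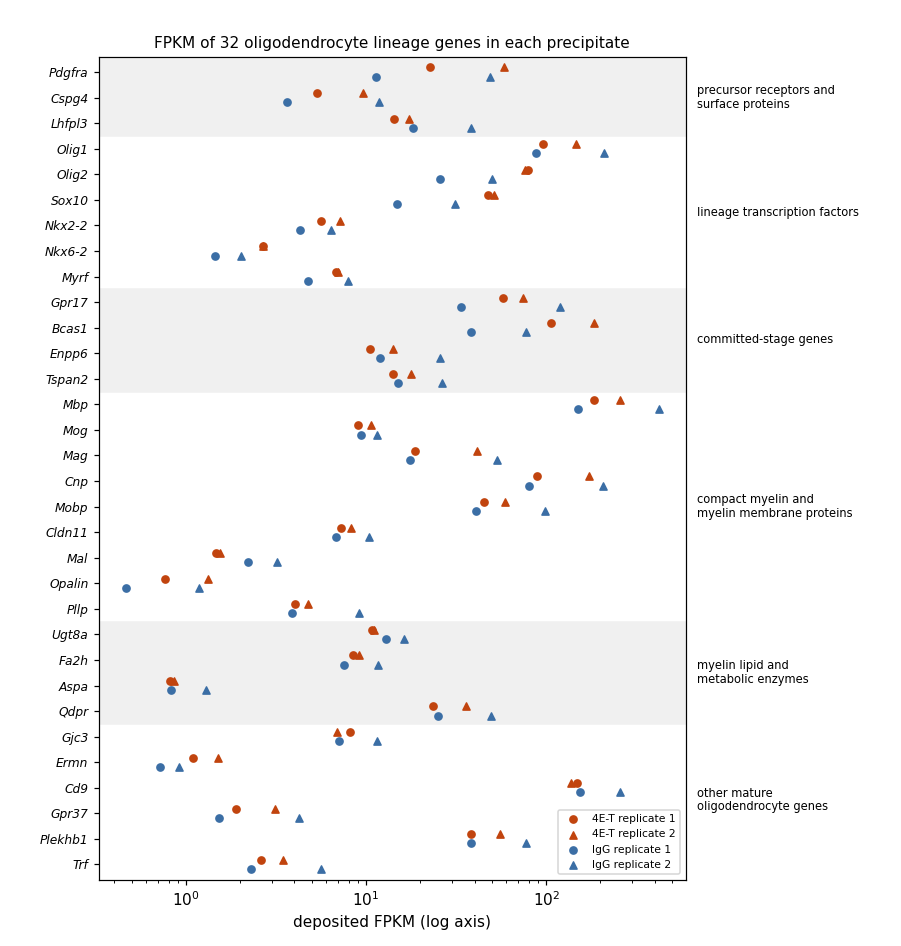
FPKM of each of the 32 genes (log axis) in the 4E-T libraries, drawn in red above, and the IgG libraries, drawn in blue below; circles are replicate 1, triangles replicate 2, and shading separates the roles. Both red points lie to the right of both blue points for Olig2, Sox10, Bcas1, Nkx6-2 and Ermn, while the blue triangle of IgG replicate 2 is the rightmost point for most other genes.

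The IgG libraries differed from each other more than the 4E-T libraries did. From replicate 1 to replicate 2 the FPKM of the 32 genes differed by a median of 1.27-fold within 4E-T and 2.03-fold within IgG, against 1.18-fold and 1.42-fold for the 17347 tested genes with reads in every library. All 32 genes had more FPKM in IgG replicate 2 than in IgG replicate 1. This depended on the scale. In RPM, reads scaled to the total gene reads of the library, some genes were lower in IgG replicate 2 and others higher. From IgG replicate 1 to replicate 2, Mog went from 23.5 to 17.2 RPM and Ugt8a from 70.7 to 53.7. Mbp went from 1058 to 1774 RPM and Pdgfra from 114 to 294. Taken as a share of gene reads, the list held 0.344% in 4E-T replicate 1 (95% Wilson interval 0.342 to 0.347) and 0.389% in 4E-T replicate 2 (0.386 to 0.391). It held 0.371% in IgG replicate 1 (0.367 to 0.374) and 0.551% in IgG replicate 2 (0.548 to 0.554). These intervals cover counting error only. The 4E-T libraries thus lay near IgG replicate 1 and below IgG replicate 2.

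**Figure D2:**
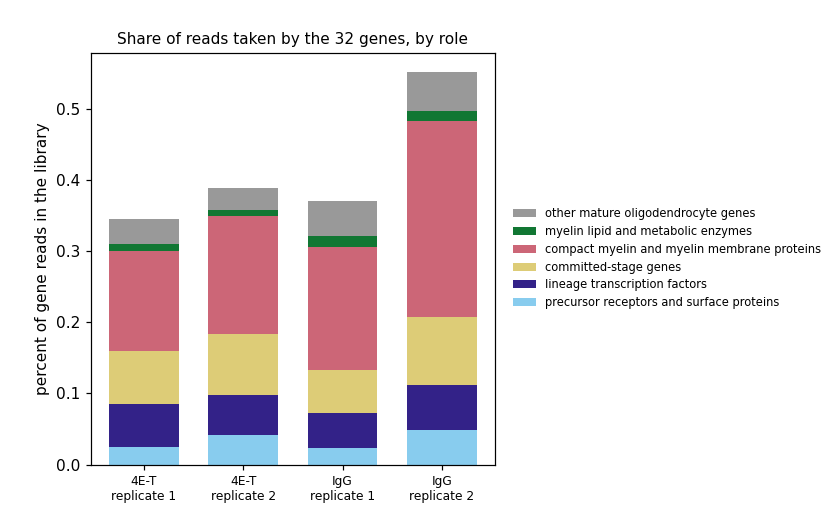
Percent of each library's gene reads that fell on the 32 genes, stacked by role. Myelin membrane genes took 0.140% and 0.165% in the 4E-T libraries and 0.172% and 0.275% in the IgG libraries, and this part makes most of the extra height of IgG replicate 2.

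Fold changes are the difference between 4E-T and IgG in log2(FPKM + 1), which understates the change of low genes. They were fitted with limma over the 17651 genes whose mean was at least 1 FPKM, with p-values adjusted by Benjamini-Hochberg over all of them. Of the list, 30 genes passed that filter, and Opalin and Aspa did not. Without a term for the experiment, limma put 0 of the 30 higher and 0 lower, where 0.00567% of all genes were called higher and 0% lower. Before adjustment, 2 of the 30 were higher and 0 lower at p under 0.05, against 11.2% and 1.78% of all genes. Once the experiment entered the fit as a block, 3 of the 30 passed as higher, or 10%, and 0 as lower, against 17.5% and 4.44% of all genes. The share called higher was thus below that of all genes. On simulated data this blocked fit called unchanged genes well above its nominal rate, and the blocked read fit, introduced next, far fewer. The simulation changed few genes and gave both antibodies the same experiment effect and all genes the same dispersion. These rates may therefore not hold for these libraries. The authors' deposited table gave the same 3 genes an adjusted p under 0.05 and called 0 members lower, against 10.7% and 2.61% of the 22881 genes to which it gives an adjusted p.

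The scale of the deposited FPKM bears on every direction below. Gene reads per unit of the authors' denominator differed between libraries. Relative to IgG replicate 1 they were 1.67 in IgG replicate 2, and 1.43 and 1.84 in 4E-T replicates 1 and 2. Over all tested genes the median log2 fold change was 0.18 on the deposited values. It was -0.02 after quantile normalization and -0.06 when reads recovered from the FPKM were scaled with TMM, a trimmed mean of log ratios, and fitted with limma-voom. This last fit, with the block, is called the blocked read fit here, and its quantile-normalised counterpart the blocked quantile fit. The blocked quantile fit was not run on simulated data. The median of the 30 genes was -0.12, -0.44 and -0.41 on these 3 scales. The blocked read fit put 3 of the 30 higher and 9 lower, against 13.6% and 11% of all genes. The blocked quantile fit put 3 higher and 10 lower, against 10.4% and 9.23%. The 3 higher genes were the same in all of these fits, and 6 genes were lower in both of the rescaled fits, namely Cd9, Enpp6, Lhfpl3, Qdpr, Tspan2 and Ugt8a.

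**Figure D3:**
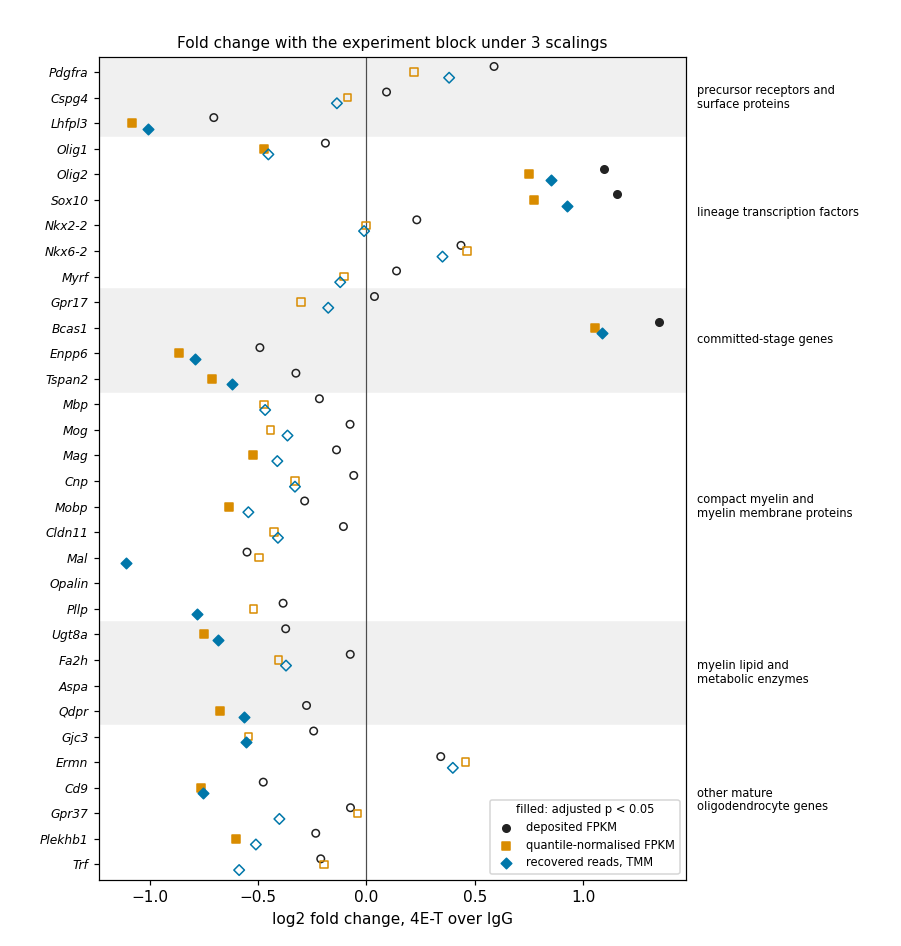
Log2 fold change of 4E-T over IgG with the experiment block for the 30 tested genes, on deposited FPKM (black circles), quantile-normalised FPKM (orange squares) and recovered reads (blue diamonds); filled symbols passed at an adjusted p under 0.05. Bcas1, Sox10 and Olig2 are filled on the right on every scale, and rescaling moves most other genes to the left.

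Olig2, a basic helix-loop-helix factor needed to specify the lineage, had 79.2 and 76.4 FPKM in the 4E-T libraries, against 25.6 and 50.1 in the IgG libraries. On FPKM the groups did not overlap, and the 4E-T libraries agreed closely while the IgG libraries differed by 1.96-fold. In RPM, Olig2 had 197 and 148 with 4E-T, against 91.2 and 107 with IgG. The groups did not overlap there either, but the IgG libraries lay closer together than the 4E-T libraries. On deposited FPKM Olig2 rose by a log2 fold change of 1.10 (blocked limma fit, SE 0.30, adjusted p = 0.00291, and 0.385 without the block). Within experiments 1 and 2 Olig2 was 3.10-fold and 1.52-fold higher on deposited FPKM, and 2.16-fold and 1.38-fold higher in RPM. Unblocked, its log2 fold change on FPKM was 0.62 without IgG replicate 1 and 1.57 without IgG replicate 2. The median of all genes in these fits was 0.0024 and 0.46.

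Sox10, an SRY-box factor that sustains precursors and activates myelin genes, had 47.3 and 51.1 FPKM in the 4E-T libraries, against 14.9 and 31.1 in the IgG libraries. Here too the groups did not overlap, and IgG replicate 1 was the lowest. Its log2 fold change was 1.15 (blocked limma fit, SE 0.29, adjusted p = 0.00111, and 0.348 without the block). The difference in experiments 1 and 2 was 3.19-fold and 1.65-fold on deposited FPKM, and 2.23-fold and 1.49-fold in RPM. Unblocked, the log2 fold change on FPKM was 0.65 without IgG replicate 1 and 1.66 without IgG replicate 2. The median of all genes in these fits was 0.0024 and 0.46.

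Bcas1, a gene of early myelinating cells, had the largest change among the 30 tested genes on deposited FPKM. It had 106 and 184 FPKM in the 4E-T libraries, against 38.0 and 77.4 in the IgG libraries. Each experiment had its own level, yet the antibodies differed by nearly the same factor in each, 2.80-fold in experiment 1 and 2.38-fold in experiment 2. In RPM these folds were 1.95 and 2.16. Its log2 fold change was 1.35 (blocked limma fit, SE 0.31, adjusted p = 0.000206, and 0.337 without the block). In the blocked read fit it was 1.09 (SE 0.25, adjusted p = 0.000223). On deposited FPKM without the block it was 0.85 without IgG replicate 1, 1.85 without IgG replicate 2 and 0.96 without 4E-T replicate 2. The median of all genes in these fits was 0.0024, 0.46 and 0.07.

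In the annotation of GRCm38.p6 from RefSeq, Olig2 lies at chr16:91225550-91228677 and Olig1 at chr16:91269769-91271939, so the sister genes are neighbours on mouse chromosome 16. Sox10 lies at chr15:79154913-79164490 and Bcas1 at chr2:170343973-170427911. The Bcas1 locus is shared with the long non-coding gene Bcas1os2, which has a row of its own in the table. No label or header names the strand setting of the counting, so reads of overlapping genes cannot be told apart. The same holds for Nkx2-2 with Nkx2-2os, Tspan2 with Tspan2os, Gpr17 with Lims2, Cnp with Dnajc7, Nkx6-2 with Inpp5a, Lhfpl3 with A930003O13Rik and Cd9 with Gm28809 and Gm26728.

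The remaining transcription factors did not pass on deposited FPKM. Olig1, the close relative of Olig2, had 96.5 and 147 FPKM in the 4E-T libraries, against 87.4 and 211 in the IgG libraries. The 4E-T values lay between those of IgG. Its log2 fold change was -0.19 (blocked limma fit, adjusted p = 0.741), and it was lower in the blocked quantile fit (log2 fold change -0.47, adjusted p = 0.0311) but not in the blocked read fit (adjusted p = 0.174). Without IgG replicate 2, on deposited FPKM with no block, Olig1 was at 0.44 and the median of all genes at 0.46. Myrf, the activator of myelin genes, had 6.83 and 7.0 FPKM with 4E-T, against 4.77 and 7.96 with IgG. Nkx2-2, a homeodomain factor of precursors, had 5.64 and 7.13 FPKM with 4E-T, against 4.31 and 6.36 with IgG. Both sets overlapped. Nkx6-2, a homeodomain factor of maturing cells, had 2.68 and 2.68 FPKM with 4E-T, against 1.44 and 2.03 with IgG, from 58 to 120 reads per library. Its groups did not overlap, but it did not pass (blocked limma fit, adjusted p = 0.252).

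The ratio of genes within a library does not depend on the scaling between libraries. Such pairs were chosen after their values were seen and are a description with no test. Olig2 over Olig1 in FPKM was 0.821 and 0.521 in the 4E-T libraries, against 0.292 and 0.238 in the IgG libraries. Sox10 over Myrf was 6.94 and 7.30 in the 4E-T libraries, against 3.12 and 3.90 in the IgG libraries. In each of these pairs both 4E-T ratios were above both IgG ratios. Bcas1 over Mbp was 0.580 and 0.719 in the 4E-T libraries, against 0.252 and 0.183 in the IgG libraries, and Bcas1 over Enpp6 was 10.1 and 13.0, against 3.18 and 3.02.

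Of the surface genes of precursors, Pdgfra and Cspg4 varied mainly with the experiment. Pdgfra, the receptor for platelet-derived growth factor, had 22.7 and 58.4 FPKM in the 4E-T libraries, against 11.4 and 49.0 in the IgG libraries. Replicate 2 was 2.58-fold above replicate 1 with 4E-T and 4.29-fold above it with IgG. Within experiments Pdgfra was 1.98-fold and 1.19-fold higher with 4E-T, and its log2 fold change of 0.59 did not pass (blocked limma fit, adjusted p = 0.139). Cspg4 had 5.33 and 9.64 FPKM with 4E-T, against 3.62 and 11.8 with IgG. Its value was higher with 4E-T in experiment 1 and lower in experiment 2.

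Lhfpl3, a membrane protein gene that marks precursors, had 14.3 and 17.4 FPKM in the 4E-T libraries, against 18.1 and 38.1 in the IgG libraries, with no overlap. On deposited FPKM its log2 fold change of -0.71 did not pass (blocked limma fit, adjusted p = 0.0548). It fell by 1.01 on the log2 scale in the blocked read fit (SE 0.21, limma adjusted p = 3.57e-05), and by 1.08 in the blocked quantile fit (adjusted p = 7.38e-05). Lhfpl3 over Pdgfra in FPKM was 0.631 and 0.298 in the 4E-T libraries, against 1.59 and 0.778 in the IgG libraries. That ratio with 4E-T was 0.398 and 0.383 times the IgG ratio in experiments 1 and 2. Without IgG replicate 2, in a fit of deposited FPKM without the block, Lhfpl3 was at -0.19 and the median of all genes at 0.46.

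Genes of committed cells split. Against the rise of Bcas1, Enpp6, a choline phosphodiesterase of newly forming oligodendrocytes, had 10.5 and 14.2 FPKM in the 4E-T libraries and 11.9 and 25.6 in the IgG libraries. In RPM, recovered reads scaled to the total gene reads of the library, it had 53.3 and 56.0 with 4E-T, against 87.0 and 112 with IgG, which do not overlap. It fell in the blocked read fit (log2 fold change -0.79, limma adjusted p = 0.00176) but not on deposited FPKM (adjusted p = 0.193). Tspan2, a tetraspanin of early myelination, fell in the blocked read fit as well (log2 fold change -0.62, adjusted p = 0.0191), with 64.5 and 63.1 RPM with 4E-T, against 98.95 and 104 with IgG. Both in RPM and on deposited FPKM, Enpp6 and Tspan2 were lower with 4E-T in both experiments. On deposited FPKM without IgG replicate 2 and without the block they were at 0.028 and 0.063. In that fit the median of all genes was 0.46. Gpr17, a receptor that holds cells at the premyelinating stage, had 57.6 and 73.9 FPKM with 4E-T, against 33.8 and 119 with IgG. It was 1.70-fold higher with 4E-T in experiment 1 and 0.622 times the IgG level in experiment 2, so its direction depended on the experiment.

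**Figure D4:**
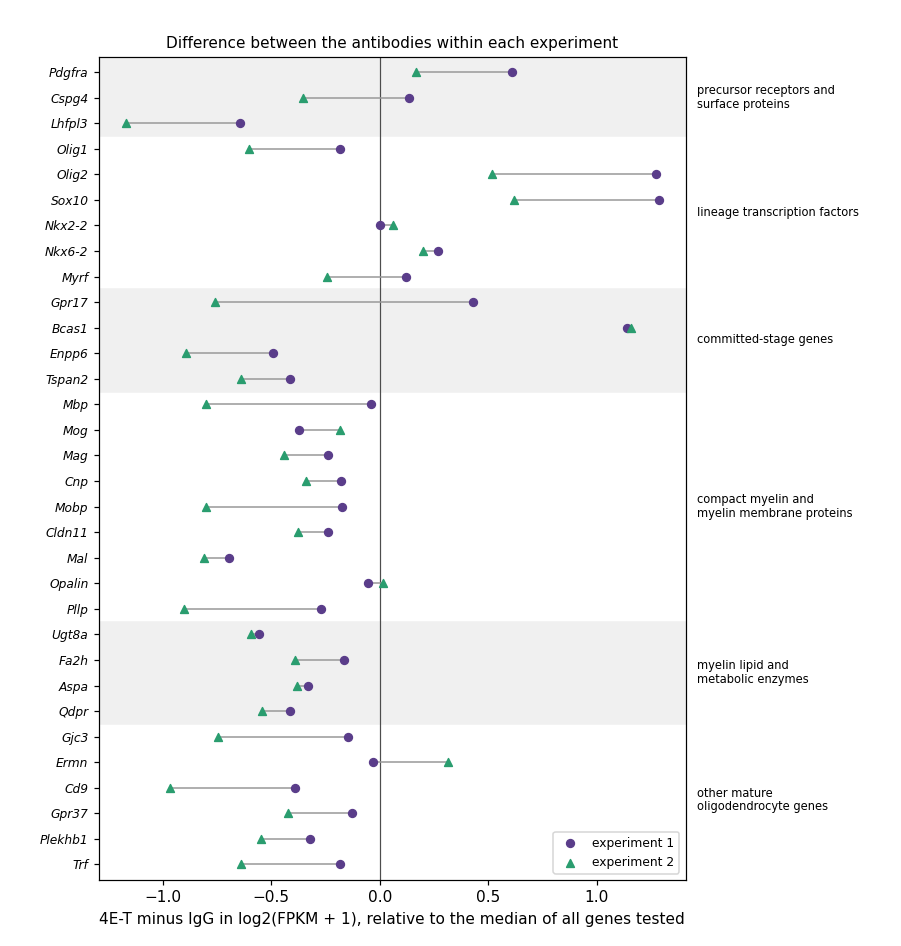
Difference between 4E-T and IgG in log2(FPKM + 1) within experiment 1 (purple circles) and experiment 2 (green triangles) for the 32 genes, relative to the median of all genes tested in that experiment (vertical line). Both points of 21 genes lie left of the line and both of Pdgfra, Olig2, Sox10, Nkx6-2 and Bcas1 lie right of it; Gpr17, Cspg4, Myrf, Nkx2-2, Opalin and Ermn have points on opposite sides.

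Genes of the myelin membrane had 183 and 256 FPKM at their highest, for Mbp in the 4E-T libraries, against 151 and 422 in the IgG libraries. Mbp was 1.22-fold higher with 4E-T in experiment 1 and 0.607 times the IgG level in experiment 2. Cnp, a cyclic nucleotide phosphodiesterase of non-compact myelin, had 88.5 and 172 FPKM with 4E-T, against 80.1 and 206 with IgG. Mobp, a basic protein of compact myelin, had 45.3 and 59.0 FPKM with 4E-T, against 40.7 and 97.8 with IgG. For these abundant genes the FPKM with 4E-T lay inside the range of the IgG values. In RPM, which sets the libraries on another scale, Mbp had 900 and 978 with 4E-T, against 1058 and 1774 with IgG, and Mobp had 152 and 154 with 4E-T, against 196 and 282 with IgG. Neither gene overlapped between the groups in RPM, whereas Cnp and Mag did. On FPKM the 4E-T values also lay inside the IgG range for Mag, an adhesion molecule at the axon, with 18.7 and 41.4 FPKM against 17.6 and 53.4, and for Cldn11, a tight junction protein of myelin, with 7.28 and 8.30 FPKM against 6.81 and 10.4. Mog, a glycoprotein of the outer myelin surface, had 9.06 and 10.6 FPKM with 4E-T, against 9.42 and 11.5 with IgG, and Pllp, a proteolipid, had 4.04 and 4.74 FPKM with 4E-T, against 3.86 and 9.16 with IgG. In RPM both 4E-T libraries were below both IgG libraries for Cldn11, Mog and Pllp.

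Mal, a proteolipid of myelin, had 1.47 and 1.54 FPKM in the 4E-T libraries, against 2.20 and 3.22 in the IgG libraries, from 96 and 98 reads with 4E-T and 129 and 194 with IgG. The groups did not overlap on FPKM or in RPM, and it fell by 1.11 on the log2 scale in the blocked read fit (SE 0.31, limma adjusted p = 0.00276). It did not pass on deposited FPKM (adjusted p = 0.130) or in the blocked quantile fit (adjusted p = 0.327). Pllp also fell in the blocked read fit (log2 fold change -0.78, limma adjusted p = 0.0155), and Mag and Mobp did so only in the blocked quantile fit (adjusted p = 0.0153 and 0.00545). On deposited FPKM without IgG replicate 2 and without the block, Mal was at -0.35, Pllp at 0.15, Mag at 0.63 and Mobp at 0.34. In that fit the median of all genes was 0.46. Opalin, a late membrane protein, had 33 and 56 reads with 4E-T, against 18 and 47 with IgG, or 1.43 and 1.95 against 1.25 and 1.90 RPM.

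Of the enzymes of myelin lipids and metabolism, the 3 that were tested lay below the median of all genes on each of the 3 scales. Ugt8a, which makes the galactolipid of myelin, had 10.8 and 11.1 FPKM in the 4E-T libraries, against 12.8 and 16.3 in the IgG libraries. These groups did not overlap, and Ugt8a fell in the blocked read fit (log2 fold change -0.69, SE 0.20, limma adjusted p = 0.0057) but not on deposited FPKM (adjusted p = 0.347). Qdpr, which recycles a biopterin cofactor, had 33.0 and 39.2 RPM with 4E-T, against 50.6 and 59.9 with IgG, and fell in that fit by 0.57 (adjusted p = 0.027). Without IgG replicate 2, on deposited FPKM with no block, Ugt8a was at -0.21, Qdpr at 0.20 and the median of all genes at 0.46. Fa2h, a fatty acid hydroxylase, had 8.50 and 9.19 FPKM with 4E-T, against 7.51 and 11.6 with IgG, and did not pass on any of the 3 scales. Aspa, which cleaves N-acetylaspartate, had 80 and 82 reads with 4E-T, against 73 and 117 with IgG. In RPM it had 3.48 and 2.85 with 4E-T, against 5.06 and 4.72 with IgG, which do not overlap, and it was too low to be tested.

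Among the other genes of mature cells, Cd9, a tetraspanin also made by other cells, had 148 and 138 FPKM in the 4E-T libraries, against 155 and 256 in the IgG libraries. It did not overlap between the groups, and it fell in the blocked read fit (log2 fold change -0.75, limma adjusted p = 0.0111) but not on deposited FPKM (adjusted p = 0.288). Gjc3, a connexin, fell in the blocked read fit as well (log2 fold change -0.56, adjusted p = 0.0302). Plekhb1, a pleckstrin homology domain gene, had 38.1 and 55.3 FPKM with 4E-T, against 38.2 and 76.9 with IgG, and was lower only in the blocked quantile fit (adjusted p = 0.00557). Without IgG replicate 2, on deposited FPKM with no block, Cd9 was at -0.12, Gjc3 at 0.072 and Plekhb1 at 0.26. In that fit the median of all genes was 0.46. Trf, which encodes the iron carrier transferrin, had 2.61 and 3.47 FPKM with 4E-T, against 2.28 and 5.59 with IgG. Gpr37, a receptor of maturing cells, had 1.90 and 3.12 FPKM, against 1.53 and 4.22. Ermn, a cytoskeletal gene of mature cells, had 1.10 and 1.51 FPKM with 4E-T, against 0.717 and 0.912 with IgG. Its groups did not overlap, but it rested on 55 to 126 reads and did not pass (blocked limma fit, adjusted p = 0.50).

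On deposited FPKM both 4E-T libraries were above both IgG libraries for 5 of the 30 tested genes and below them for 4, where 32.6% and 8.13% of all tested genes were. In RPM these counts were 5 above and 17 below, where 22.9% and 25.9% of all genes were. Relative to the median of all genes, 20 of the 30 were lower with 4E-T in both experiments on FPKM, where 36.9% of all genes were, and 20 in RPM, where 36.9% were. The number above the median in both experiments was 5 of the 30 on FPKM and 7 in RPM, where 36.9% of all genes were on each scale. No test over the list was made.

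Of 32 other genes of the lineage, 31 were tested, and their median log2 fold change relative to all genes was -0.08 on deposited FPKM. For the 30 listed genes it was -0.31, both values with all libraries. Without IgG replicate 2 it was 0.13 for the 31 other genes and -0.08 for the 30 listed genes. The difference between the lists was not tested. With the block on deposited FPKM 6 of the 31 were higher and 0 lower, where 17.5% and 4.44% of all genes were. The blocked read fit put 6 higher and 3 lower, where 13.6% and 11% of all genes were, and the blocked quantile fit put 6 higher and 3 lower, where 10.4% and 9.23% were. Anln, an actin-binding gene used both in cell division and in myelin, had 13.6 and 10.3 FPKM with 4E-T, against 4.39 and 4.38 with IgG (blocked limma fit, log2 fold change 1.25, adjusted p = 2e-05). Cers2, a ceramide synthase, had 121 and 103 FPKM with 4E-T, against 45.7 and 55.7 with IgG, and Tcf7l2, a Wnt effector of differentiating oligodendrocytes, had 16.4 and 15.6 FPKM, against 7.20 and 8.48. Of 18 genes of cholesterol synthesis, which supplies the growing sheath, limma called 0 higher on each scale with the block, and it called 0 lower on deposited FPKM, 1 in the blocked read fit and 3 in the blocked quantile fit. At an unadjusted p under 0.05 these fits put 2, 1 and 1 higher and 0, 2 and 7 lower. The share of all genes at that threshold was not computed for the blocked fits, so these last counts cannot be weighed.

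Markers of other cell types in the tissue were read in the same libraries, and their calls are given with the block for deposited FPKM, then the read fit, then the quantile fit, beside the shares of all genes given above. Vascular and mural markers took 0.0232% and 0.0282% of gene reads with 4E-T, against 0.0785% and 0.0367% with IgG, and 6, 9 and 1 of 10 were lower. Microglial markers took 0.0537% and 0.0481% with 4E-T, against 0.0691% and 0.08585% with IgG, and 1, 2 and 6 of 8 were lower. Ependymal markers took 0.0109% and 0.00953% with 4E-T, against 0.0167% and 0.0154% with IgG, and 1, 2 and 3 of 6 were lower. Astrocyte and stem cell markers took 0.202% and 0.310% with 4E-T, against 0.259% and 0.5001% with IgG, and 0, 2 and 4 of 8 were lower. Neuroblast markers took 0.185% and 0.161% with 4E-T, against 0.186% and 0.180% with IgG; 2 of 8 were higher in each fit, and 0, 0 and 1 lower. Striatal neuron markers took 0.0927% and 0.147% with 4E-T, against 0.0760% and 0.119% with IgG, and 2, 1 and 1 of 6 were higher. No marker of the first 4 lists was called higher and no striatal marker lower. The 95% Wilson intervals of these shares, and of the shares by role, reached at most 4.25% of the share to either side. No marker in these lists was at 0 reads in any library. The part of these differences in the values of the oligodendrocyte genes was not tested.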

How the data were processed

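RNA precipitated with anti-4E-T or control IgG was compared between 2 libraries per group; RNA came from a MAGNA RIP kit and cDNA from SMART-Seq v4 with Nextera XT libraries, per the labels' protocols. Per the submitters' processing notes, tools included Trim Galore 0.5.0, STAR 2.6.0c, HTSeq 0.6.1p2 and DESeq2 1.26.0, with build mm10. The authors deposited FPKM per library and, per the file headers, a DESeq2 comparison with a mean normalized signal, a log2 fold change with SE, a Wald score, p-values and a linear fold change; no label or header gives its model.

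FPKM of a gene step by the worth of 1 read, so together with the deposited mean signal they gave back read counts, 100% of them whole within a relative tolerance of 0.001; the lowest gene total was 10 reads. Tests were run in limma 3.58.1 (R 4.3.3), on log2(FPKM + 1) for genes with mean FPKM of at least 1, with trended, robust moderation, two-sided, called at adjusted p under 0.05. Alternatives were pseudocount 0.1, no filter, quantile normalization, an experiment block, limma-voom on recovered reads with TMM (trims 0.3 and 0.05), and leaving out each library. The unblocked FPKM fit, the blocked FPKM fit and the blocked read fit were tested on simulated data, and the blocked quantile fit was not. There the blocked FPKM fit called nearly as many unchanged genes as changed ones, well above the nominal rate, and the blocked read fit far fewer. The simulation gave both antibodies the same experiment effect and all genes the same dispersion.

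The titles give libraries a shared experiment number, read as a batch, and same-numbered libraries deviated together (r across genes 0.67 on deposited FPKM, 0.49 after quantile normalization), so blocked values are printed where they change a call. The blocked fit leaves 1 residual degree of freedom and takes its spread largely from a trend across genes. All 32 members are named; of each other list up to 3 genes per direction with the smallest blocked p could be named, and this was done for the other oligodendrocyte genes only. Members and lists were chosen with earlier results of these data known. Overlaps and coordinates come from RefSeq on GRCm38.p6.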

Additional observations from a re-analysis of the deposited data

How the results depend on the processing

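Without a block, no setting with all 4 libraries called a member, and counts rest on the experiment block and the scale. The replicate block gave 3 members higher on deposited FPKM, 3 after quantile normalization and 3 in the read fit; members lower numbered 0, 10 and 9. Over all genes these fits called 3090, 1843 and 2400 higher and 784, 1630 and 1941 lower, against 1 and 0 without the block. No filter, quantile normalization and recovered reads, each without the block, called 0 genes higher. Leaving out a library, without a block, assumes that the lone library varies like the others; it gave 0 to 4 members higher, 0 to 1 lower, 2 to 2441 genes higher, 0 to 1094 lower, and a member median of -0.68 to 0.38. The median of all genes was 0.0024 without IgG replicate 1 and 0.46 without IgG replicate 2, so relative to it the members were at -0.68 and -0.08, against -0.31 with all libraries. Without IgG replicate 2 the 4 higher members were Pdgfra, Olig2, Sox10 and Bcas1, and without IgG replicate 1 the lower member was Lhfpl3.

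Relative to deposited FPKM, 4 genes changed direction on other scales, none of them called on any scale, and the cause was not tested. After quantile normalization, with or without the block, Cspg4 was at -0.089, Nkx2-2 at -0.0031, Myrf at -0.10 and Gpr17 at -0.30. In the read fit they were at -0.14, -0.011, -0.12 and -0.18 with the block, and at -0.14, -0.014, -0.12 and -0.19 without. The ranges that follow are set against 0, although the median of all genes was 0.46 without IgG replicate 2. In that fit Enpp6, Tspan2, Mobp, Pllp, Qdpr, Gjc3 and Plekhb1 were above 0 but below that median, whereas Mag, Cnp and Mbp were above both. Leaving out libraries spread the log2 fold change across 0 for 21 genes: -0.42 to 1.59 for Pdgfra, -0.64 to 0.83 for Cspg4, -0.82 to 0.44 for Olig1, -0.0033 to 0.47 for Nkx2-2, -0.18 to 0.46 for Myrf, -0.85 to 0.93 for Gpr17, -1.01 to 0.028 for Enpp6, -0.71 to 0.063 for Tspan2, -0.96 to 0.52 for Mbp, -0.21 to 0.054 for Mog, -0.91 to 0.63 for Mag, -0.73 to 0.62 for Cnp, -0.91 to 0.34 for Mobp, -0.38 to 0.17 for Cldn11, -0.92 to 0.15 for Pllp, -0.36 to 0.21 for Fa2h, -0.76 to 0.20 for Qdpr, -0.56 to 0.072 for Gjc3, -0.60 to 0.45 for Gpr37, -0.73 to 0.26 for Plekhb1, -0.71 to 0.29 for Trf. Olig2, Sox10, Bcas1, Nkx6-2 and Ermn stayed above 0 in each of these fits (0.62 to 1.57, 0.65 to 1.66, 0.85 to 1.85, 0.28 to 0.59 and 0.21 to 0.47), and Lhfpl3, Mal, Ugt8a and Cd9 below it. The pseudocount changed no direction and no call of a member.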
